A study of Homo sapiens with 8 samples.

Results

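The genes of the mitochondrial ribosomal proteins were examined in 2 human pancreatic ductal adenocarcinoma lines, MIA PaCa-2 and Capan-1, with and without an siRNA against the homeobox gene HOXB7. The members were the non-control probes whose gene name on the array was MRPL or MRPS followed directly by digits and at most 1 final letter. This gave 76 genes (47 MRPL and 29 MRPS) on 91 probes, of 27274 gene names and 34127 probes on the array. A total of 62 members had 1 probe, 13 had 2 probes and MRPL19 had 3.

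Each line was analyzed on 4 one-color arrays: 2 of parental cells and 2 of cells that received 10 nM of an siRNA directed at HOXB7 and were taken 48 h later. Capan-1 comes from a liver metastasis, and the lines were kept in different media, Capan-1 with the higher share of serum. The parental samples were not transfected, and no array of scrambled siRNA was analyzed here, so the siRNA and the transfection itself cannot be told apart. The 4 arrays of a line lay on 1 slide, with the siRNA arrays in the first positions and the parental arrays in the last, so slide cannot be told apart from line, nor position on the slide from treatment. The labels do not say whether replicates came from separate cultures, and the p-values then measure only the spread between these samples. HOXB7 was lower in the siRNA arrays of both lines. In MIA PaCa-2 its probe was not well above background on either siRNA array, and HOXB7 was at least 2.81-fold lower than in parental cells (adjusted p = 0.0173). In Capan-1 the log2 difference was -2.62 (adjusted p = 0.121). Epithelial markers separated the lines: the 7 markers tested, among them CDH1 and EPCAM, were all lower in parental MIA PaCa-2, and the mesenchymal genes VIM and ZEB1 were higher, while CDH2 and FN1 were lower. CDH1 and EPCAM were not well above background in MIA PaCa-2.

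Mitochondrial ribosomes translate the few proteins encoded by mitochondrial DNA, which are core subunits of the respiratory chain and of ATP synthase. Their rRNAs come from mitochondrial DNA, but every ribosomal protein is encoded in the nucleus, made in the cytosol and imported. Some of these proteins descend from the bacterial ribosome, and others are found only in mitochondria. The letters L and S in the symbols refer to the large and small subunits as first assigned: MRPS30 and MRPS18A are now placed in the large subunit, and MRPS36 has been reassigned to the 2-oxoglutarate dehydrogenase complex.

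The mitoribosomal genes were well measured in both lines. The brightest probe of each of the 76 genes was well above background on 8 of 8 arrays, as were 88 of the 91 probes, and no member probe was saturated on any array. Levels are given as log2 signal minus the array's 75th percentile, the value of a gene is that of its brightest probe, and levels of different probes are not comparable. The median level of the members was 3.47 and 3.48 in parental MIA PaCa-2, 3.49 and 3.44 in siRNA-treated MIA PaCa-2, 3.42 and 3.37 in parental Capan-1, and 3.48 and 3.52 in siRNA-treated Capan-1. The 8 medians thus lay close together, with the parental Capan-1 arrays the lowest.

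The first comparison asked how the lines differed before treatment. Of the 76 genes, 14 were lower and 34 were higher in parental MIA PaCa-2 than in parental Capan-1 (limma, Benjamini-Hochberg adjusted p under 0.05 over all probes tested). These are 18.4% and 44.7% of the members, beside 31.7% lower and 40.1% higher among the 20123 genes tested. Among the 500 probes nearest to each member in mean level, 28.2% on average were called lower and 42.4% higher. MRPL52 had probes called in each direction and is in neither count, and 27 members were not called. The 34 include MRPS17 and MRPS18C, called only through a dim probe that was well above background in MIA PaCa-2 alone. By the brightest probe alone, 15 members were lower and 32 higher. The values of the parental arrays did not overlap between the lines in 25 members that were lower and 45 that were higher, or 32.9% and 59.2%, beside 39.2% and 47.2% of all genes. The median log2 difference of the members was 0.18, against 0.10 for all genes and 0.16 for the probes nearest in level. Scaled to the spike-in probes, the difference of all genes moved to a median of -0.02, that of the members to 0.06, and the counts to 13 lower and 21 higher, beside 6373 and 6343 of all genes (50.1% and 49.9% of calls, against 44.2% and 55.8% with the 75th percentile). With no scaling between arrays the counts were 9 lower and 23 higher, beside 5395 and 7144 of all genes. The members' differences had a narrower range than those of all genes: the quartiles lay at -0.18 and 0.50, and those of all genes at -0.68 and 0.87. All genes include some well above background in MIA PaCa-2 or Capan-1 alone, whereas every member's brightest probe was so on 8 arrays. The range was not compared at matched level. Members ran from -1.93 to 1.78, complex I genes from -1.1 to 1.89 and cytosolic ribosomal protein genes from -8.2 to 3.97. Each sample was a bulk culture of a single line, so fewer expressing cells and less RNA per cell cannot be told apart.

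**Figure D1:**
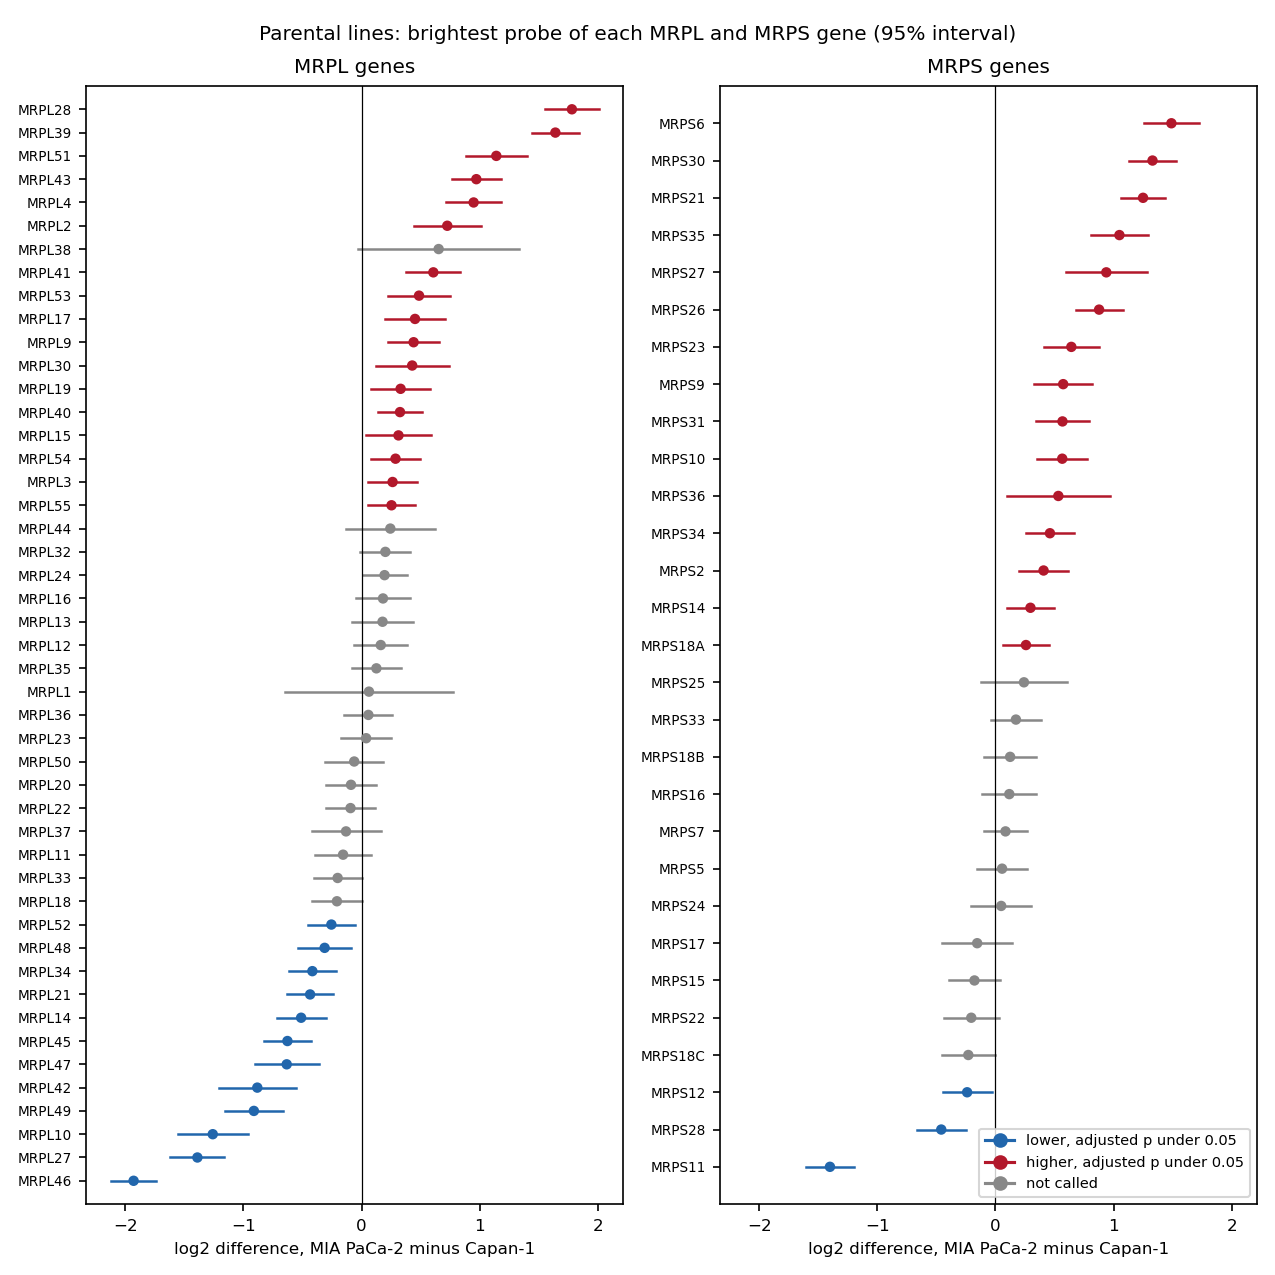
Log2 difference of the brightest probe of each gene between parental MIA PaCa-2 and parental Capan-1 (n = 2 arrays each), with the 95% interval of the limma fit, MRPL genes on the left and MRPS genes on the right. The values run from -1.93 for MRPL46 to 1.78 for MRPL28. MRPS17 and MRPS18C appear as not called because their calls came from a dimmer probe. MRPL52 appears as lower by its brightest probe but is in neither count, because its dimmer probe was called higher.

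Of the genes that were lower in MIA PaCa-2, 11 were among the 47 MRPL genes and 3 among the 29 MRPS genes. MRPL46, a mitochondria-specific protein of the large subunit, read 1.503 and 1.493 in parental MIA PaCa-2 against 3.40 and 3.45 in parental Capan-1. The log2 difference was -1.93 ± 0.08 (SE, adjusted p = 5.3e-06), or 3.81-fold, and it was the largest in size among the 76 genes. The siRNA-treated arrays stayed with their line, at 1.64 and 1.58 in MIA PaCa-2 and 3.48 and 3.56 in Capan-1. MRPS11, which binds rRNA on the platform of the small subunit, was at 2.91 and 2.94 in parental MIA PaCa-2 and at 4.34 and 4.31 in parental Capan-1. It was lower by a log2 difference of -1.40 ± 0.08 (SE, adjusted p = 2.48e-05), and its arrays likewise did not overlap.

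MRPL27, a protein near the peptidyl transferase center, gave 2.28 and 2.45 in parental MIA PaCa-2 and 3.78 and 3.72 in parental Capan-1 (log2 difference -1.39, adjusted p = 3.99e-05). MRPL10, at the base of the stalk that recruits translation factors, gave 3.33 and 3.04 against 4.36 and 4.52 (-1.26, adjusted p = 0.00019). In both genes each MIA PaCa-2 array was below each Capan-1 array. MRPL45, which sits at the tunnel exit and tethers the ribosome to the inner membrane, read 3.801 and 3.736 against 4.39 and 4.40 (-0.63, adjusted p = 0.000764). Its second probe also gave a lower value in MIA PaCa-2, with a log2 difference of -1.08. The other large-subunit genes among the 8 lowest were MRPL49 (log2 difference -0.91), MRPL42 (-0.88) and MRPL47 (-0.63), whose adjusted p ranged from 0.000335 to 0.00269.

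The genes that were higher in MIA PaCa-2 came from both subunits. MRPL28, a large-subunit protein with a bacterial counterpart, read 4.25 and 4.19 in parental MIA PaCa-2 and 2.37 and 2.49 in parental Capan-1. The log2 difference was 1.78 ± 0.09 (SE, adjusted p = 1.41e-05), or 3.43-fold. MRPL39, a mitochondria-specific protein, gave 3.86 and 3.86 against 2.25 and 2.19 (1.64 ± 0.08, SE, adjusted p = 1.15e-05). The 4 siRNA-treated arrays kept the same separation for both genes. MRPS6, a small-subunit protein with a bacterial counterpart, was at 4.37 and 4.46 in parental MIA PaCa-2 and at 2.96 and 2.89 in parental Capan-1 (1.49, adjusted p = 3.38e-05). MRPS30, now counted with the large subunit, was at 2.12 and 2.19 against 0.76 and 0.87 (1.33, adjusted p = 2.74e-05). The small-subunit gene MRPS21 followed with a log2 difference of 1.25, then MRPL51 with 1.14, MRPS35 with 1.05 and MRPL43 with 0.97, with adjusted p from 2.72e-05 to 0.000181. None of these 8 genes had overlapping groups. Under each of the scalings tried, including quantile normalization, the spike-in probes and none, the 16 genes with the largest differences kept their direction and their call.

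**Figure D2:**
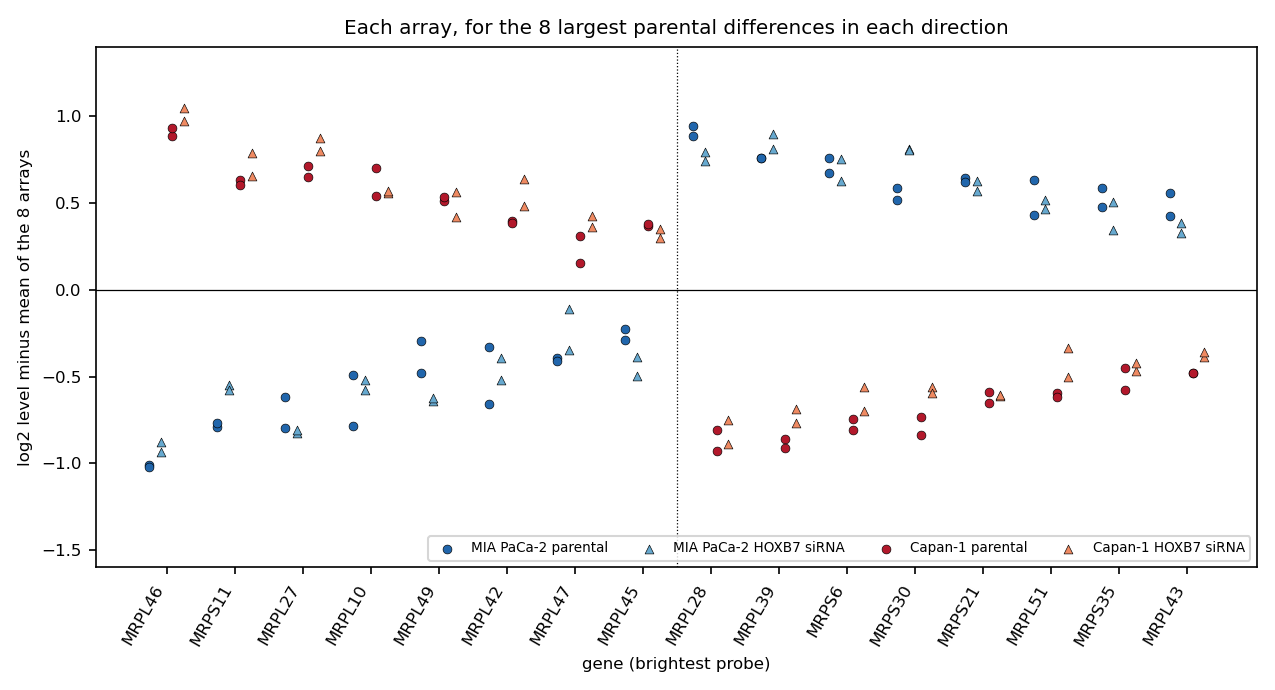
Log2 level on each of the 8 arrays minus the mean of those arrays, for the 8 members with the largest parental difference in each direction. Circles are parental and triangles are siRNA-treated samples, with 2 arrays a group. For each of the 16 genes the MIA PaCa-2 and Capan-1 arrays lie on opposite sides of 0, whatever the treatment.

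Grouped by subunit and origin, both directions occurred in every class, as they did among all genes tested (31.7% lower and 40.1% higher). Of 29 large-subunit genes with a bacterial counterpart, 6 were lower and 9 higher in parental MIA PaCa-2 (median log2 difference 0.12). Of 20 mitochondria-specific large-subunit genes, 5 were lower and 10 higher (median 0.26). Of 15 small-subunit genes with a bacterial counterpart, 2 were lower, MRPS11 and MRPS12, and 8 higher (median 0.09). The 8 include MRPS17 and MRPS18C, called only through a dim probe that was not well above background in Capan-1. Their brighter probes gave log2 differences of -0.15 and -0.23 and were not called. Of 11 mitochondria-specific small-subunit genes, MRPS28 alone was lower and 6 were higher (median 0.46). In these classes the paralogs MRPS18A and MRPS18B were counted as mitochondria-specific and MRPS18C as having a bacterial counterpart. Whether these classes differ from each other was not tested. Cytosolic ribosomal protein genes showed 8 lower and 46 higher of 81 tested (median 0.28), and complex I subunit genes 9 lower and 18 higher of 37 (median 0.15).

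The paralogs MRPS18A, MRPS18B and MRPS18C derive from 1 bacterial protein and occupy different sites in the mitoribosome. MRPS18A read 2.45 and 2.39 in parental MIA PaCa-2 and 2.13 and 2.19 in parental Capan-1 (log2 difference 0.26, adjusted p = 0.0265). This call was lost with normexp background correction (adjusted p = 0.16), quantile normalization (0.0583), no scaling (0.243) and the spike-in probes (0.539), with no filter on dim probes (0.0528) and with only the groups compared (0.0674). It was also lost when MIA PaCa-2 parental replicate 1 (adjusted p = 0.0822), Capan-1 parental replicate 1 (0.131) or Capan-1 parental replicate 2 (0.072) was left out. MRPS18B gave 4.14 and 4.31 against 4.13 and 4.08 on its brighter probe, with a log2 difference of 0.12 and an interval half-width of 0.22, and was not called. The brighter probe of MRPS18C gave 3.49 and 3.46 against 3.78 and 3.63 (-0.23, adjusted p = 0.0645).

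Probes of the same gene did not always move together. Of the 14 members with 2 or more probes tested in the parental comparison, 8 had the same sign on each probe and 6 had opposite signs. MRPS18C was called higher only through its dim probe, which was not well above background on either parental Capan-1 array, and was at least 2.77-fold higher in MIA PaCa-2 (adjusted p = 0.00186). The dim probe of MRPS17, a small-subunit protein with a bacterial counterpart, behaved likewise and was at least 2.14-fold higher (adjusted p = 0.00902), whereas its brighter probe gave a log2 difference of -0.15 (adjusted p = 0.293). The MRPL52 probes were both well above background on 8 arrays and were called in opposite directions, at -0.26 (adjusted p = 0.0307) and 0.86 (adjusted p = 0.000766). The call of the brighter MRPL52 probe was lost when any 1 of the 4 parental arrays was left out (adjusted p from 0.0581 to 0.146), with no scaling (0.338) and with the spike-in probes (0.083). In coordinates of the array's build, hg18, the brighter and dimmer probes of MRPS17 lie at chr7:55990349-55990408 and chr7:55922478-55922537, and those of MRPL52 at chr14:22373311-22373370 and chr14:22373936-22373995. The brighter MRPS18C probe, at chr4:84601206-84601353 on the plus strand, spans 148 genomic bases for 60 bases of sequence and so is split in the genome, whereas the dim MRPS18C probe, at chr4:84601841-84601900, and the MRPL46 probe, at chr15:86811386-86811445 on the minus strand, are contiguous. The brighter MRPS18C probe is shown because it is the one that was measured well above background on 8 arrays in the gene whose probes differed most, and the MRPL46 probe because it gave the largest difference. No letters are in capitals.
MRPS18C brighter probe: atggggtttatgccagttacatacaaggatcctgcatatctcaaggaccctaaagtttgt
MRPL46 probe: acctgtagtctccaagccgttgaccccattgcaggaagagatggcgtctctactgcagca

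**Figure D3:**
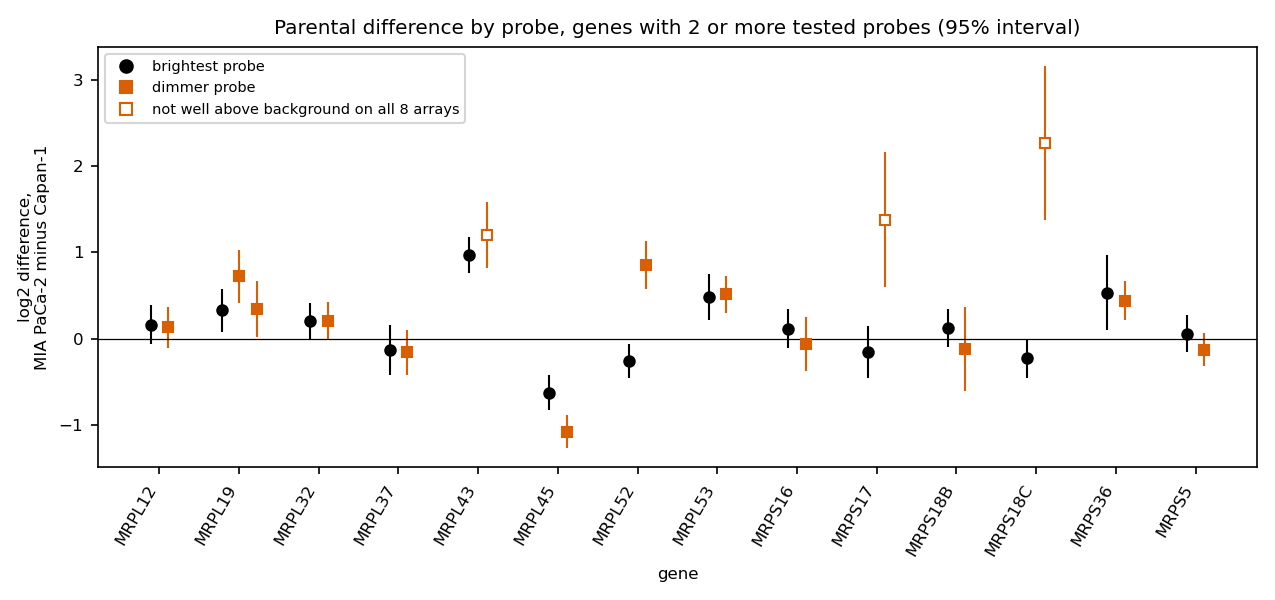
Parental log2 difference of each probe, MIA PaCa-2 minus Capan-1, for the 14 members with 2 or more tested probes, with 95% intervals (n = 2 arrays a group). Black circles are the brightest probe, orange squares the dimmer ones, and open squares were not well above background on all 8 arrays. The open squares of MRPS17 and MRPS18C lie above 0 at 1.38 and 2.27, while their black circles lie below it; those values are set by signal near background in Capan-1.

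MRPL46 and MRPS11, the members with the most negative parental differences, are neighbors. In RefSeq (GRCh38.p14), which gave a window from 250 bases before to 50 bases after the start for 68 of the 76 members, they start on opposite strands of chromosome 15. Their windows share 181 bases, chr15:88467458-88467638. MRPL27 shares 144 bases of its window with EME1, a gene for a DNA structure-specific endonuclease, yet here the 2 neighbors went opposite ways: MRPL27 was lower (log2 difference -1.39) and EME1 higher (1.06, adjusted p = 8.92e-05). The 3 windows are shown because they hold these pairs. MRPL46 is chr15:88467339-88467638 on the minus strand, MRPS11 is chr15:88467458-88467757 on the plus strand and MRPL27 is chr17:50373135-50373434 on the minus strand. Capitals mark matches to motifs of 3 factors linked to nuclear genes for mitochondrial proteins, searched on both strands: CCGGAAG for ETS factors such as GABP, GCGCANGCG for the core of the NRF1 motif, and AAGATGGCG for YY1.
MRPL46: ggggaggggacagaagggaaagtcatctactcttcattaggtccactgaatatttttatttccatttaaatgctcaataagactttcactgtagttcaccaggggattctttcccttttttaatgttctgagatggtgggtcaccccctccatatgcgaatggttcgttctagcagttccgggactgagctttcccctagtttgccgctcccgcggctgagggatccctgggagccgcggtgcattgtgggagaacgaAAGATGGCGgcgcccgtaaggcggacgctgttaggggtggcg
MRPS11: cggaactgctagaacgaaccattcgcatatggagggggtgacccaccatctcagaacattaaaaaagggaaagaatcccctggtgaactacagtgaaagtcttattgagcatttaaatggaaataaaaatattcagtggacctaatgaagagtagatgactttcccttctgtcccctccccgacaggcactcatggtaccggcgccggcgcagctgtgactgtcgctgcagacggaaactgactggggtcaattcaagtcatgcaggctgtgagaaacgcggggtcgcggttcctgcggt
MRPL27: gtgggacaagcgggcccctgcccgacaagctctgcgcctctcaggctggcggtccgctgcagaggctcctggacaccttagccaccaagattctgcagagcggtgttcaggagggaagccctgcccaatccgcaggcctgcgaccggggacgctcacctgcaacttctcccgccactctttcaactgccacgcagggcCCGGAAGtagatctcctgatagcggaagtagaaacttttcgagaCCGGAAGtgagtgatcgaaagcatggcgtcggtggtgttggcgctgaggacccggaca

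In total, 15 pairs of a member and a gene on the opposite strand had overlapping windows and were both tested, and in 12 of them the brightest probes had the same sign in the parental comparison. Among 804 such pairs without a member, 527 had the same sign (65.5%). Both genes were called in 8 pairs, and in 455 of the pairs without a member, where 325 had the same direction. The direction was the same in 5 of the 8, namely MRPL46 with MRPS11, MRPL30 with MITD1, MRPS2 with C9orf116, MRPS27 with PTCD2 and MRPS12 with SARS2, a mitochondrial seryl-tRNA synthetase. MRPL46 with MRPS11 was the only pair of members. The calls of MRPS12 and SARS2 were close to the threshold (adjusted p = 0.0441 and 0.0499). HELQ with MRPS18C counted as opposite only through the dim MRPS18C probe, and the brightest probes gave -0.45 and -0.23.

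The motif letters were common in the promoters of the family. At least 1 of the 3 motifs was found in 43 of 68 member windows (63.2%), against 3557 of 12186 windows of genes tested in the parental comparison (29.2%) and 24.7% of the 15843 protein-coding windows in the table. The ETS motif was in 28 of 68 member windows (41.2%) and 2066 of 12186 windows of tested genes, the YY1 motif in 19.1% of member windows and 3.43% of those of tested genes, and the NRF1 core in 17.6% and 13.0%. Members lower and higher in MIA PaCa-2 both held them: 8 of 11 windows of lower members, 19 of 32 of higher members and 16 of 25 of the rest had a match. The higher members here include MRPS17 and MRPS18C, called only through a dim probe. The MRPS11 window held none of the 3 motifs. The YY1 match of MRPL46 lies outside the bases that its window shares with that of MRPS11. A match is only a run of letters, and binding was not measured. Among the factors themselves, GABPA was higher (log2 difference 1.65, adjusted p = 0.000223) and YY1 was lower (-0.35, adjusted p = 0.0425) in parental MIA PaCa-2, and NRF1 gave 0.32 (adjusted p = 0.126). GABPB1, the partner subunit of GABPA in GABP, was lower on both probes. Its log2 differences were -1.26 (adjusted p = 0.00937), where 1 parental Capan-1 array had no value, and -0.63 (adjusted p = 0.00647).

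**Figure D4:**
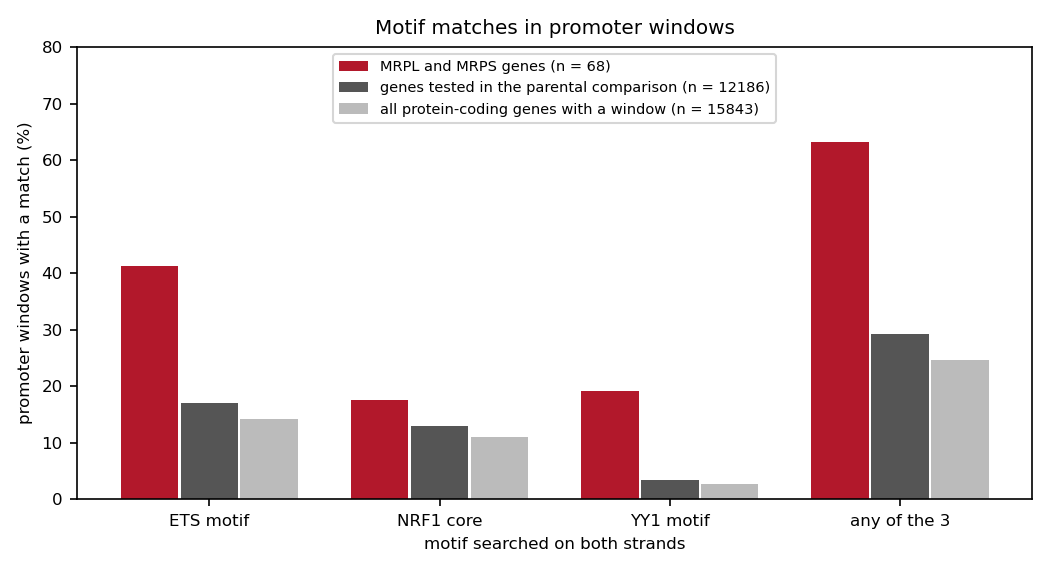
Percent of promoter windows (250 bases before to 50 after the start) with a match to each motif on either strand, for 68 members, 12186 genes tested in the parental comparison and 15843 protein-coding genes. The bars of the members are the tallest for each motif, at 41.2% for ETS, 17.6% for the NRF1 core and 19.1% for YY1.

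By chromosome, the 2 members on chromosome 15, the neighbors MRPL46 and MRPS11, were lower. The 2 on chromosome 21, MRPL39 and MRPS6, and the 2 on chromosome 16, MRPL28 and MRPS34, were higher. Chromosomes 4 and 10 also held 2 members each. There only MRPS18C, through its dim probe, and MRPL43 were called, both higher. Of all tested genes on chromosome 15, 49.3% were lower and 22.3% higher, on chromosome 21, 22.4% were lower and 49.4% higher, and on chromosome 16, 26.8% were lower and 43.8% higher. On chromosome 17, MRPL10, MRPL27 and MRPL45 were lower and MRPS23 was higher among 7 members, beside 32.8% lower and 40.4% higher of all genes there. DNA copy number was not measured in these files.

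Genes of the rest of the mitochondrial translation machinery were also called in both directions, beside 31.7% lower and 40.1% higher of the 20123 genes tested. Whether these lists differ from all genes was not tested. Of 14 translation factors, GFM1, an elongation factor, was lower (log2 difference -1.19) and 9 were higher. Of 17 mitochondrial aminoacyl-tRNA synthetases, SARS2 was lower and 10 were higher, with YARS2 at 2.07, VARS2 at 1.60, FARS2 at 1.24 and IARS2 at 1.19. The medians of these lists were 0.46 and 0.55. Of 18 genes for assembly of the mitoribosome and modification of its rRNA, 6 were lower and 7 higher. MTERF, a transcription termination factor of mitochondrial DNA, was lower (-1.78, adjusted p = 7.34e-06), and C12orf65, of the release factor family, was higher (1.90, adjusted p = 3.07e-05). Of 7 mitoribosomal proteins that carry other symbols, AURKAIP1, GADD45GIP1 and PTCD3 were higher and the others were not called. Among 9 regulators of nuclear genes for mitochondrial proteins, 5 were lower and 1 was higher. PPARGC1B, a coactivator, was lower (-1.67, adjusted p = 6.19e-05), and PPARGC1A, its relative, was not well above background in MIA PaCa-2 and was at least 1.76-fold lower.

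The second comparison asked whether the mitoribosomal genes changed after HOXB7 siRNA in MIA PaCa-2. No member passed the limma test, beside 1.12% of 19170 genes called lower and 1.17% called higher. At an unadjusted p under 0.05, 6 members were lower and 2 higher, or 7.89% and 2.63%, beside 10.3% and 10.5% of all genes. The members fell on both sides of 0, with 37 below and 39 above and a median log2 difference of 0.00 (0.00453), against 0.02 for all genes and -0.01 for the probes nearest in level. The groups did not overlap in 24 members that were lower and 22 that were higher (31.6% and 28.9%), beside 23.8% and 27.9% of all genes. With no scaling between arrays the median of all genes was -0.20 and that of the members -0.21, and 33 genes were called lower and 14 higher (70.2% of calls lower) where the 75th percentile gave 215 and 225 (48.9% lower).

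The smallest adjusted p belonged to MRPL54, a mitochondria-specific protein of the large subunit. It read 2.19 and 2.19 in siRNA-treated MIA PaCa-2 and 2.71 and 2.59 in parental cells, a log2 difference of -0.46 ± 0.08 (SE, adjusted p = 0.0607). The groups did not overlap. It passed the threshold with normexp background correction (adjusted p = 0.0243), with an intensity trend in the spread (0.0148) and when only probes well above background on all 8 arrays were tested (0.034). In Capan-1 its values were 2.31 and 2.40 against 2.35 and 2.38, and they overlapped.

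MRPS36 had the lowest log2 difference, -0.58 (adjusted p = 0.157), with 3.04 and 3.50 in siRNA-treated MIA PaCa-2 against 3.87 and 3.82 in parental cells, and its second probe gave -0.19. MRPL38, a mitochondria-specific large-subunit protein, gave -0.48 (adjusted p = 0.389), but its siRNA arrays read 0.81 and 1.70 against 1.86 and 1.61 and overlapped with the parental ones. Its difference rested on siRNA replicate 1: without it the difference was -0.04, and without siRNA replicate 2 it was -0.92 (adjusted p = 0.05). At the other end, MRPL1, part of the flexible stalk at the exit site, gave 0.50 (adjusted p = 0.388), with -0.12 and -0.23 in treated cells against -0.98 and -0.37. MRPS30 gave 0.26 and MRPS11 0.22, with adjusted p of 0.162 and 0.224. Among the related lists, NSUN4, an rRNA methyltransferase needed for subunit assembly, was the only gene called. It was lower, at -0.12 and -0.21 against 0.51 and 0.48 (-0.66, adjusted p = 0.0296), and its dimmer probe gave -0.32 (adjusted p = 0.271).

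The third comparison put the same question to Capan-1. Again no member passed the test, beside 0% of 18884 genes called lower and 0.0053% called higher. Here 66 of the 76 members lay above 0 and 10 below, whereas 49.7% of all genes lay below 0. The groups did not overlap in 50 members that were higher (65.8%) and in 1, MRPL45, that was lower (1.32%), beside 27.2% and 26.8% of all genes. The shifts were small. The median log2 difference was 0.11, against 0.00 (0.00156) for all genes and 0.05 for the probes nearest in level, and the values ran from -0.06 to 0.36. At an unadjusted p under 0.05, 6 members were higher and 0 lower, or 7.89% and 0%, beside 5.67% and 6.62% of all genes, and the smallest adjusted p was 0.307.

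This upward shift in Capan-1 was relative to the other genes on the array and its sign depended on scaling. With no scaling the median log2 difference was -0.05 for the members and -0.16 for all genes, and with spike-in probes it was -0.18 and -0.28. These settings move every probe on an array by the same amount. The members' distance from all genes, 0.11, was thus the same by construction. With normexp background correction that distance was 0.02, and with quantile normalization 0.07. Without siRNA replicate 2 it was 0.06 and without siRNA replicate 1 it was 0.16. The members' median distance from the probes nearest in level was 0.06. Cytosolic ribosomal protein genes showed a median of 0.11 with 72 of 81 above 0, and complex I genes 0.11 with 29 of 37 above 0. By symbol, 40 of 47 MRPL and 26 of 29 MRPS genes were above 0.

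The members with the highest log2 differences in Capan-1 were MRPL1, MRPS18B and MRPL44. MRPL1 gave -0.74 and -0.02 in treated cells against -0.64 and -0.84 in parental cells (0.36, adjusted p = 0.641), and its groups overlapped. MRPS18B gave 4.41 and 4.44 against 4.13 and 4.08 (0.32, adjusted p = 0.307), but its dimmer probe gave -0.27. MRPL44, which has a ribonuclease III fold, gave 1.48 and 1.70 against 1.33 and 1.24 (0.30, adjusted p = 0.468). The lowest were MRPL11 and MRPL10, both of the stalk region, at -0.06 each, and MRPS16 at -0.05, and their groups overlapped. The other MRPS18 paralogs gave 0.15 for MRPS18A and 0.12 for MRPS18C. For MRPS36 the brightest probe had no value on siRNA replicate 1, an outlier spot, so its difference of 0.04 rests on 1 treated array.

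**Figure D5:**
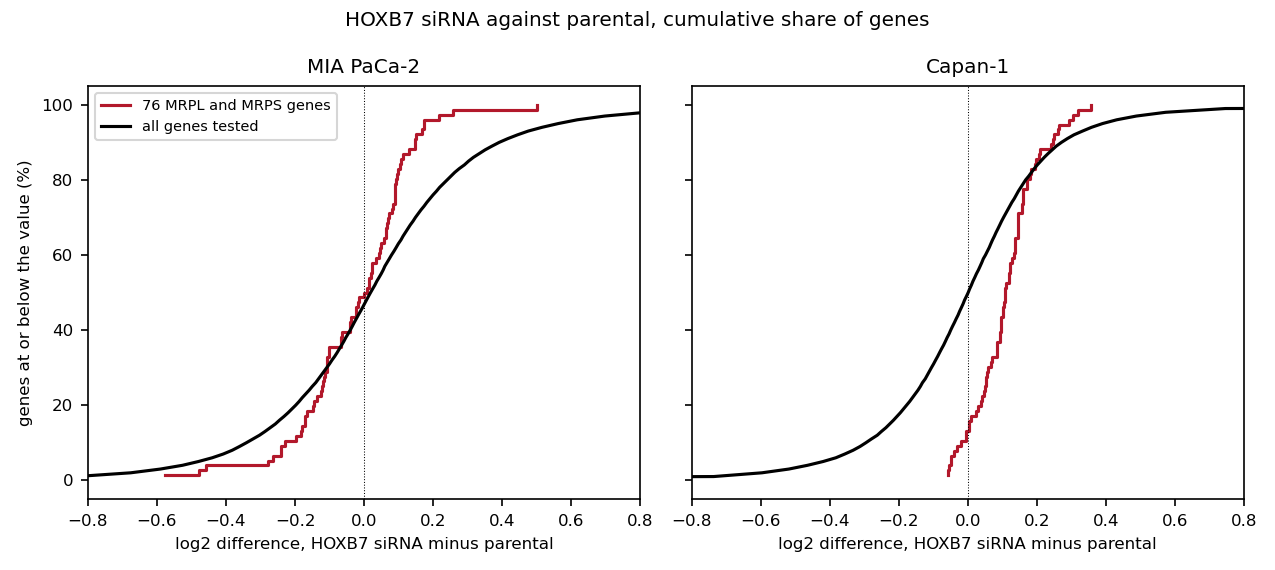
Cumulative share of genes by log2 difference between HOXB7 siRNA and parental arrays (n = 2 each) in MIA PaCa-2 (left) and Capan-1 (right), for the 76 members (red) and all genes tested (black). In MIA PaCa-2 the red curve crosses 0 at 48.7% and in Capan-1 at 13.2%, against 46.7% and 49.7% for all genes; the axis stops at 0.8, beyond which some genes lie.

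The response of MIA PaCa-2 minus that of Capan-1 was tested directly as an interaction. No member passed, beside 0.00486% of 20575 genes called lower and 0.00486% called higher. The members' median was -0.15, against 0.01 for all genes, and 60 of 76 lay below 0 (78.9%, beside 48.2% of all genes). The shift was not particular to the members: complex I genes had a median of -0.15 with 30 of 37 below 0. Cytosolic ribosomal protein genes had -0.06 with 58 of 82 below 0, and genes for mitoribosome assembly 0.03 with 8 of 18 below 0. Probes nearest in level were not compared here. With spike-in scaling the members' median was 0.04 and that of all genes 0.20. At an unadjusted p under 0.05, 6 members were lower and 0 higher, or 7.89% and 0%, beside 5.09% and 6.17% of all genes. The 6 were MRPL54 (-0.46), MRPL19 (-0.37), MRPL48 (-0.36), MRPL22 (-0.36), MRPS34 (-0.32) and MRPS5 (-0.31). Their adjusted p ranged from 0.288 to 0.441.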

How the data were processed

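The authors hybridized RNA of 8 samples to one-color Agilent arrays. The deposited intensity values are the processed signals of Agilent Feature Extraction 9.5.3, background-corrected by that software. A deposited table of log2 values held the same signals and was used as an alternative. Outlier spots were left out, spots of a probe averaged on the log2 scale, and each array's 75th percentile over gene probes subtracted. One limma fit (limma 3.58.1, R 4.3.3) of 8 arrays gave each contrast, over the 25552 probes that some group had well above background in both replicates. A gene was called where at least 1 probe passed an adjusted p of 0.05 (Benjamini-Hochberg) and none passed the other way. The number of arrays limits the precision: an exact permutation test of 2 against 2 cannot go below p = 0.333. The script was tested on simulated data.

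Members, lists and tests were chosen with earlier results of these data known. Named in the text were members called after siRNA (there were none), the 8 largest parental differences in each direction, the 3 lowest and highest after siRNA, genes with disagreeing probes, the MRPS18 paralogs and up to 6 called genes of the related lists. Other genes, given beside small counts, a chromosome or a neighboring promoter, were named after their values were seen. A comparison with the nearest 500 probes in level is a description. Alternatives were normexp correction (offset 50), quantile, spike-in (7 probes) and no scaling, outlier spots kept, other filters, only the groups compared, a replicate block, an intensity trend, each array left out, and an adapted 99% interval rule. That rule followed the study's methods but without their minimum of 2 probes a gene. It called 0 members in either line. Of all genes it called 43 lower and 42 higher of 19169 in MIA PaCa-2, and 128 and 177 of 18882 in Capan-1. These counts differ from those the study reported. Symbols were those of the array, and 76 members matched a RefSeq gene. The deposited files name array coordinates in hg18. Proteins were not used here.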

Additional observations from a re-analysis of the deposited data

How the results depend on the processing

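The parental counts of 14 lower and 34 higher became 9 lower with no scaling between arrays and 21 higher with spike-in scaling, and otherwise stayed between 12 and 19 lower and between 23 and 36 higher. With 1 array left out they ranged from 12 to 13 lower and from 25 to 34 higher. After siRNA in MIA PaCa-2, 3 members (MRPL52, MRPL54 and MRPS36) were called lower with normexp correction. MRPL54 was the 1 member called with the filter on all 8 arrays, and the 1 called with an intensity trend. Leaving out 1 array gave 0 to 1, MRPL38 being called without siRNA replicate 2. In Capan-1 and in the interaction, 0 members were called under each alternative run.

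The median of the members relative to all genes was 0.08 in the parental comparison. It was 0.125 with normexp correction, -0.00174 with quantile normalization, 0.212 with no filter and 0.11 with the mean over all probes, and 0.0136 to 0.137 with 1 array left out. It was lowest without MIA PaCa-2 parental replicate 2 and highest without Capan-1 parental replicate 1. In MIA PaCa-2 after siRNA the value of -0.01 became -0.111 with normexp correction and 0.0154 with quantile normalization, and it had no stable sign with 1 array left out: leaving out parental replicate 1 gave -0.0749, and leaving out parental replicate 2 gave 0.0264, the lowest and highest values. In Capan-1 the value of 0.107 became 0.0232 and 0.0713 under the same settings, and 0.055 to 0.165 with 1 array left out. The causes were not tested.

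Arrays with the same replicate number did not deviate together (correlation over 20359 probes 0.0232 for MIA PaCa-2, 0.0377 for Capan-1). No shared effect of the replicate number was thus seen, but this cannot show whether the samples were prepared as pairs. With a replicate block 13 members were lower and 33 higher in the parental comparison, and 0 were called in the others. With 2 arrays a group and each line on its own slide, small shifts such as those in Capan-1 rest on few measurements.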
